A study of Mus musculus with 5 samples.

Results

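The comparison set the chromatin accessibility of C17.2 cells 0.5 h after neural induction against the same line at 0 h, over every annotated site of the deposited table. C17.2 is an established multipotent mouse neural stem cell line, and the labels give its strain background as CD1 x C57BL/6. All libraries carry the treatment label Neural induction. The 0 h cells had been grown in DMEM/F12 with 10% FBS, and the 0.5 h cells had spent 0.5 h in serum-free Knockout DMEM with GlutaMAX and N2 supplement. Serum was thus removed at the same moment as the inductive medium was added, and the series used here holds no library that separates these steps. Accessibility was measured by ATAC-seq, in which a transposase inserts adapters into open chromatin. The table held 34714 sites, 33952 of them under 8034 gene symbols, and all of them entered the comparison. Of the 5 libraries (0, 0.5, 1, 1.5 and 2 h, 1 library each), 2 were compared, and the other 3 serve here only to show the same sites at later times.

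The value of a site is a whole number from 0 to 10. It was read as the number of entries of a library's BED file that lie over the site, not as reads. A site was called covered where it held 1 or more entries, gained where it went from 0 to 1 or more, and lost in the reverse case. Sites at most 500 bp apart were joined into 9217 regions, since neighbouring sites mostly share an interval. With 1 library per time no test was possible, no value has a replicate error, and every difference is a difference between libraries. Read depth is unknown. Summed over all sites, the values came to 56773 in the 0.5 h library and 42527 in the 0 h library. An entry over several sites counts once for each, so this total is not the number of entries in a library. The part of that gap in the differences below was not tested.

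Leaving serum and entering a differentiation medium is known to shift growth factor signalling within minutes, through receptor kinases, the MAP kinase cascade and the PI3K, Akt and mTOR axis. Immediate early genes such as Jun and Klf10 are transcribed without new protein synthesis, and feedback inhibitors such as the Sprouty and Spred proteins damp the same pathways. Promoters of such genes are often accessible before they are transcribed, so coverage at a promoter is not a measure of transcription. In neural progenitors, Notch signalling, REST and the Sox, Zic and Fox factors hold the undifferentiated state, while proneural helix-loop-helix factors open the neuronal programme.

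Newly covered promoters are easiest to see in sequence. The windows below run from 250 bases before to 50 bases after the RefSeq start (GRCm38.p6), 5′ to 3′ on the strand of the gene, and the capitals mark the sites that were gained, or for Clmn lost. Trak1 (chr9:121297252-121297551, plus strand), Gnai1 (chr5:18360364-18360663, minus strand) and Dnmbp (chr19:43940149-43940448, minus strand) are shown because every site of each gene was gained. Clmn (chr12:104865027-104865326, minus strand) is shown because every site it has was lost.
Trak1: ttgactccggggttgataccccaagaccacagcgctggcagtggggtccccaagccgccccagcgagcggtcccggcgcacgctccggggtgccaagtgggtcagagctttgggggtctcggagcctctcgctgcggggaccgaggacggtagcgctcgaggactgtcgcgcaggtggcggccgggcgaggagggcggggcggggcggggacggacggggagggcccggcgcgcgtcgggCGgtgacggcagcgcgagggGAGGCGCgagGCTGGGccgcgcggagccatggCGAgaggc
Gnai1: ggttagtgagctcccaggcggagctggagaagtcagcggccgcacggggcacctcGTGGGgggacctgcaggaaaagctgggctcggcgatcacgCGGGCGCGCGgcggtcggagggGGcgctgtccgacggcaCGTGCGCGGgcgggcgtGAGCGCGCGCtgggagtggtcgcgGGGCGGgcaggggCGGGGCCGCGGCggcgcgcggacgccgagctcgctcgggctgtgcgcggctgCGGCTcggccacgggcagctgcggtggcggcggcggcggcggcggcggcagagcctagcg
Dnmbp: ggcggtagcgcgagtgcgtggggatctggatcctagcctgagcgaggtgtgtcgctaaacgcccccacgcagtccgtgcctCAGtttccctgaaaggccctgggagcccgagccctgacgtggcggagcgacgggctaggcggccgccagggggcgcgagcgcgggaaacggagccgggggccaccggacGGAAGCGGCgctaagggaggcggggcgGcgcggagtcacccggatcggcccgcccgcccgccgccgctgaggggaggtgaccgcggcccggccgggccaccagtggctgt
Clmn: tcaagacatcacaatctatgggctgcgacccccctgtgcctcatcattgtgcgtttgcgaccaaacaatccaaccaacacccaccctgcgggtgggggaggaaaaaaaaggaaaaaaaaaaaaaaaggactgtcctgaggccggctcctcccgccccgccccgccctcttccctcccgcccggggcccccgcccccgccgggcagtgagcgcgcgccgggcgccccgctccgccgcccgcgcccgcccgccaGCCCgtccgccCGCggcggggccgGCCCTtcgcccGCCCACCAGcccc
The 4 sites in the Trak1 window each held 0 entries at 0 h and 6 at 0.5 h. The 8 in the Gnai1 window each went from 0 to 5, as did the 3 in the Dnmbp window, and the 4 in the Clmn window from 4 to 0. All 4 windows are rich in CpG, with 41, 53, 41 and 33 CpG dinucleotides respectively.

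Promoter windows of this length held a site of their own gene for 3278 genes, 1 window per gene. In 158 of them all sites were at 0 at 0 h and at least 1 was covered at 0.5 h, and in 32 the reverse held. The median GC content was 77.0% in the 158 gained windows (quartiles 72.4 to 79.7%), 73.3% in the 32 lost windows, 68.3% in 2468 windows covered at both times, 72.7% in 620 covered at neither and 52.7% over all 27025 RefSeq windows. Gained windows thus had the highest median GC content of these classes, though their quartiles overlapped those of each other class except all RefSeq windows. Motif letters were searched on both strands. The NF-Y letters CCAAT occurred in 10.8% of gained windows and 34.1% of those covered at both times, against 37.8% of all windows. Windows covered at neither time held them in 19.8%. The ETS letters CCGGAAG occurred in 6.96% of gained windows, 18.2% of those covered at both times and 5.48% of those covered at neither, against 9.08% of all. The AP-1 letters TGANTCA were found in 3 of the 158 gained windows (1.9%), in 2.96% of those covered at both times and in 2.26% of those covered at neither, against 7.91% of all. The CRE letters TGACGTCA were found in 4 gained windows (2.53%), in 3.53% and 2.58% of the same classes, and in 1.78% of all. For NF-Y and ETS the share in gained windows was thus closer to that in windows covered at neither time than to that in windows covered at both. Low shares were not particular to gained windows. The 32 lost windows, which were covered at 0 h, held the NF-Y letters in 2 (6.25%) and the ETS letters in 1 (3.12%). No lost window held the AP-1 or CRE letters. The AP-1 and CRE counts of 3 and 4 gained windows are too small to order the classes. The Sp1 and KLF letters GGGCGG were in 88.6% of gained windows and 85.7% of those covered at both times, against 35.6% of all. They were also in 87.1% of windows covered at neither time and 90.6% of lost windows, so they did not set gained windows apart. The NRF1, E-box and TATA letters were searched too and are not reported here.

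At 0 h, 47.6% of the 34714 sites were covered, and at 0.5 h 58.7%. There were 4181 gained sites (12.0% of all sites, and 23.0% of the 18202 uncovered at 0 h, Wilson 95% interval 22.4 to 23.6%). The Wilson intervals here and below cover counting error over sites only and treat sites as independent. Neighbouring sites mostly share entries, so these intervals are too narrow. Lost sites numbered 328 (0.945% of all, and 1.99% of the 16512 covered at 0 h, interval 1.78 to 2.21%). A gained site held a median of 2 entries and at most 8: 892 held 1, 1321 held 2, 1039 held 3 and 929 held 4 or more. Most lost sites had been low, with 146 at 1 entry and 131 at 2, and only 27 at 4 or more. Among the 16184 sites covered at both times, 5528 held more entries at 0.5 h, 3367 fewer and 7289 the same number. Differences of 4 entries or more were found at 217 of these in the upward and 70 in the downward direction.

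**Figure D1:**
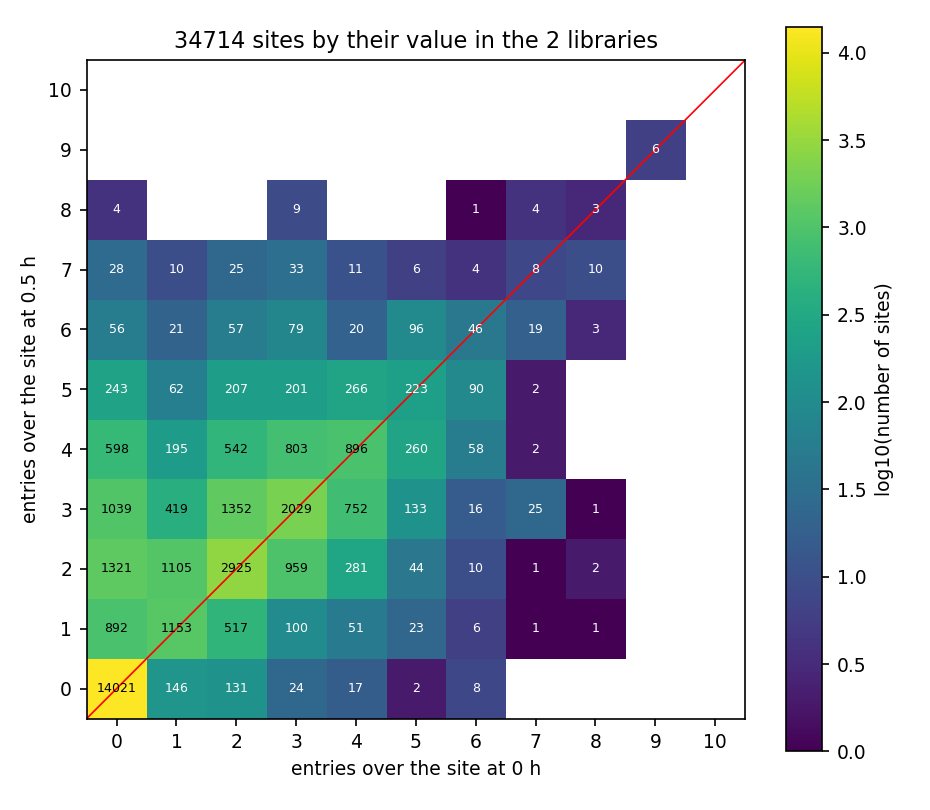
Number of sites by entries at 0 h (horizontal) and 0.5 h (vertical), printed in each square and coloured on a log10 scale; the red line marks equal values. The left column above 0 holds the 4181 gained sites and the bottom row right of 0 the 328 lost sites.

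Most gained sites, 3197 of 4181 (76.5%, interval 75.2 to 77.7%), lay in a region with another covered site at 0 h. This share rests on merging at 500 bp, and whether the gained sites adjoined the covered ones was not tested. Merging at 200 bp gave 697 gained regions, against 388 at 500 bp. Among 3968 regions of 2 or more sites that were covered at both times, 1180 had more covered sites at 0.5 h, 76 had fewer and 2712 the same number. The covered span was wider in 924 of them, by a median of 189.5 bp (quartiles 85 to 321 bp), and narrower in 88. Wider cover did not always mean more entries: of the 1180 regions with more covered sites, 618 had a higher highest value, 459 the same and 103 a lower one. Whole regions that went from no cover to cover numbered 388 (4.21% of 9217), and 87 (0.944%) went the other way. Of the gained regions 126 reached only 1 entry and 68 reached 4 or more.

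The gained sites lay further into the gene than those covered throughout. Their median distance was 387.25 bp downstream of the annotated 5′ end, against 198 bp for sites covered at both times and 337.5 bp for lost sites (7587 of 8034 symbols were placed). Only sites uncovered at 0 h could be gained. Cover at 0 h fell from 69.9% of sites in the 100 bp upstream to 35.2% between 750 and 1000 bp downstream. The part of this in the medians was not tested. The share of uncovered sites that were gained was 30.7% between 250 and 500 bp downstream and 28.1% between 250 and 500 bp upstream. It was 21.2% in the 100 bp upstream of the start, and 17.7% between 750 and 1000 bp downstream. By chromosome it ran from 15.2% on X and 15.3% on chromosome 7 to 34.0% on chromosome 16, with 0 of 25 uncovered sites on Y.

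**Figure D2:**
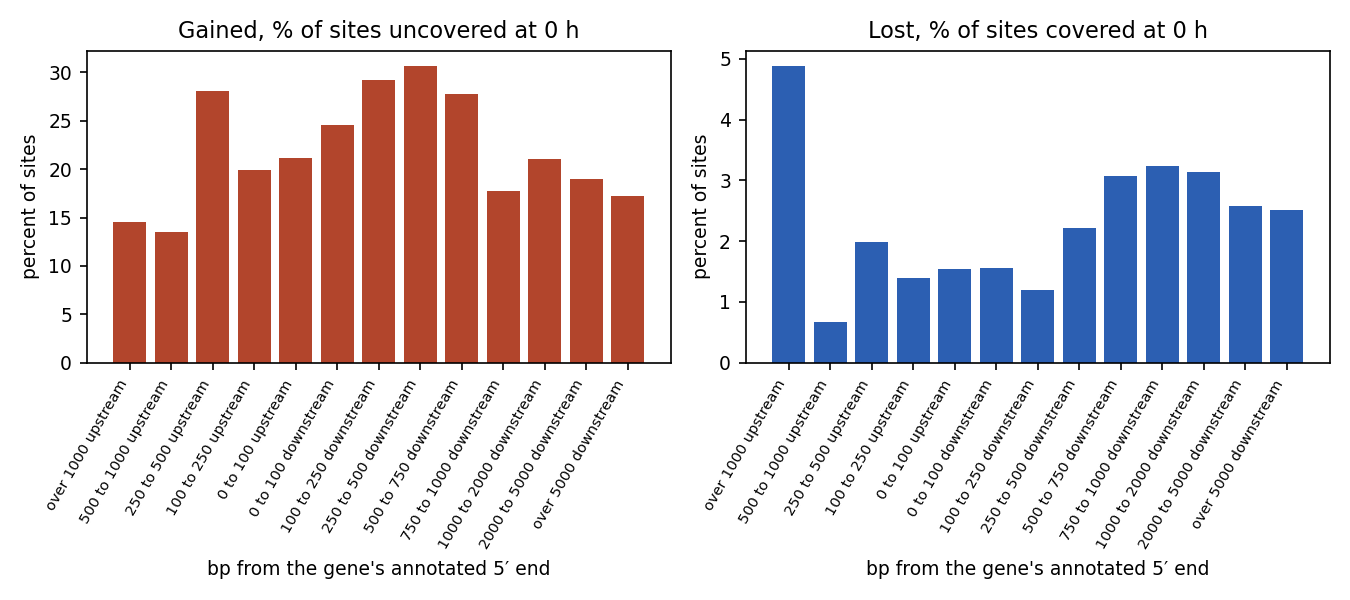
Share of sites gained (left, percent of sites uncovered at 0 h) and lost (right, percent of sites covered at 0 h) by distance in bp from the annotated 5′ end of their gene; the vertical scales differ. Gains were most frequent from 250 to 500 bp downstream (30.7%), and losses over 1000 bp upstream (4.89%).

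The 1, 1.5 and 2 h libraries took no part in calling a site gained or lost. Cover was present again at 50.4% of the 4181 gained sites in the 1 h library, at 95.9% in the 1.5 h library and at 93.0% in the 2 h library, and 88 had none in any of these. Sites covered at both 0 and 0.5 h were at 95.1%, 99.6% and 98.9%, and sites covered at neither at 1.43%, 20.2% and 19.1%. Lost sites were covered again in 23.8%, 77.7% and 69.8%. The 1 h library was thus the one in which gained sites were most often back at 0. Its total over sites (45254) was also lower than those of the 0.5, 1.5 and 2 h libraries (56773, 65824 and 59437). The part of this in the shares was not tested.

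By gene, 5886 of 8034 symbols had a covered site at 0 h and 6172 at 0.5 h. Newly covered genes, with every site at 0 at 0 h, numbered 361 (4.49% of all genes), and 75 genes (0.934%) lost all cover. With 2 or more entries needed for cover, these were 801 and 277. At least 1 gained site was found in 1568 genes (19.5%), at least 1 lost site in 205 (2.55%), and both in 60. Adding up the entries over a gene's sites, 2770 genes (34.5%) were higher at 0.5 h, 1239 (15.4%) lower and 4025 equal. These sums depend on the total: with the 0.5 h values multiplied by 0.749, which gives both libraries the same total, 2258 genes were higher and 3989 lower, so that the higher share of differing genes went from 69.1% to 36.1%. The median log2 ratio of sums (1 added to each) over all genes was 0.0 on both scales. Scaling puts a covered gene with an equal sum below 0, and leaves a gene uncovered at both times at 0. Calls of gained and lost sites cannot change under such scaling, since a 0 stays 0. They can still depend on how many entries a library holds, and that part was not tested. Over the 5 libraries the share of covered sites was higher where the total over sites was higher, from 47.6% at 42527 to 66.9% at 65824. Each covered site adds to that total, so the share and the total are tied and cannot show what the calls depend on.

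Among newly covered genes named by rank of their highest value, several are signalling or transcription genes. Crlf2, a cytokine receptor subunit, went from 0 to 7 entries at 1 of its 2 sites and held 0, 7 and 2 at 1, 1.5 and 2 h. Trak1, an adaptor that ties mitochondria to kinesin, held 0, 6, 0, 2 and 4 at its highest site in time order. Gnai1, an inhibitory G protein alpha subunit, held 0, 5, 2, 2 and 5, with all 9 of its sites gained. Here and below, unless a site is named, such a series gives the highest value of the gene in each library, which need not be at the same site. These genes were chosen on the 0 and 0.5 h values. At 1 h Crlf2 and Trak1 were back at 0, and Gnai1 was not.

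Jun, the AP-1 subunit, has a single site (chr4:95051546-95051551), 674 bp downstream of the annotated start and within the gene, and its values were 0, 6, 0, 5 and 0. Nr3c1, the glucocorticoid receptor, gained 8 of 16 sites, which held 12 entries together at 0.5 h. Its highest value in each library was 0, 5, 0, 7 and 7. Zic5, a zinc finger factor of neural progenitors, gained 4 of 4, with 0, 5, 0, 6 and 6. Each of these 3 genes was therefore at 0 both at 0 h and at 1 h.

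Ptbp1, a splicing repressor that is high in neural progenitors, gained 4 of 4 sites and held 0, 5, 0, 1 and 0. Rsf1, a subunit of a chromatin remodelling complex, held 0, 6, 3, 3 and 6 at its only site, and Mettl9, a histidine methyltransferase, 0, 6, 0, 4 and 4. Map4k4, a kinase above the JNK pathway, gained 6 of 17 sites. Of these, 1 held 0, 5, 0, 0 and 0, and the others held 2 at 0.5 h and at most 1 later. Dnmbp, an exchange factor for Cdc42, gained 5 of 5 with 0, 5, 2, 3 and 2. For Ptbp1 and Map4k4 only the 0.5 h library held a value above 1.

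Atp5j, a subunit of ATP synthase, and Gabpa, an ETS factor that drives genes for mitochondrial proteins, are neighbours whose sites share 1 region, and both held 0, 5, 4, 5 and 5. They count as 1 event. Zbtb25 and Zbtb1, zinc finger and BTB domain genes, gained 6 of 6 and 3 of 4 sites, with highest values of 0, 5, 0, 3 and 1 for Zbtb25 and 0, 5, 3, 5 and 4 for Zbtb1. The rest of the 20 ranked genes (Septin5, Wdr43, Agbl5, Naa15 and Nek6) each reached 5. Among them Nek6, a mitotic kinase, gained only 1 of 6 sites.

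The lost genes ranked first had held at most 6 entries. Gapdh, the glycolytic enzyme, has 1 site in the table (chr6:125165018-125165020), 1448 bp downstream of the annotated start, and its values were 6, 0, 0, 0 and 0. Nsd1, a histone H3 lysine 36 methyltransferase, held 5, 0, 0, 3 and 4, and lost the only 2 of its 9 sites that had been covered. Clmn, which encodes the actin-binding protein calmin, held 4, 0, 0, 2 and 2 over 4 sites. Of these only Gapdh was at 0 in every later library.

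Kdm6b, a histone H3 lysine 27 demethylase, held 4, 0, 0, 4 and 0 at 1 site 10329 bp into the gene. Atp11a, a phospholipid flippase, lost 5 of 14 sites, each of which had held 2 entries, and Mta1, a subunit of the NuRD complex, lost 3 of 17 that had also held 2. Other ranked losses were Efemp2, H2ac4, Pltp, Strn4 and Zmym2 from 3 entries, and Lncpint, Drap1, Ephx4 and Mark1 from 2. Strn4 alone among these 9 stayed at 0 at 1, 1.5 and 2 h.

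**Figure D3:**
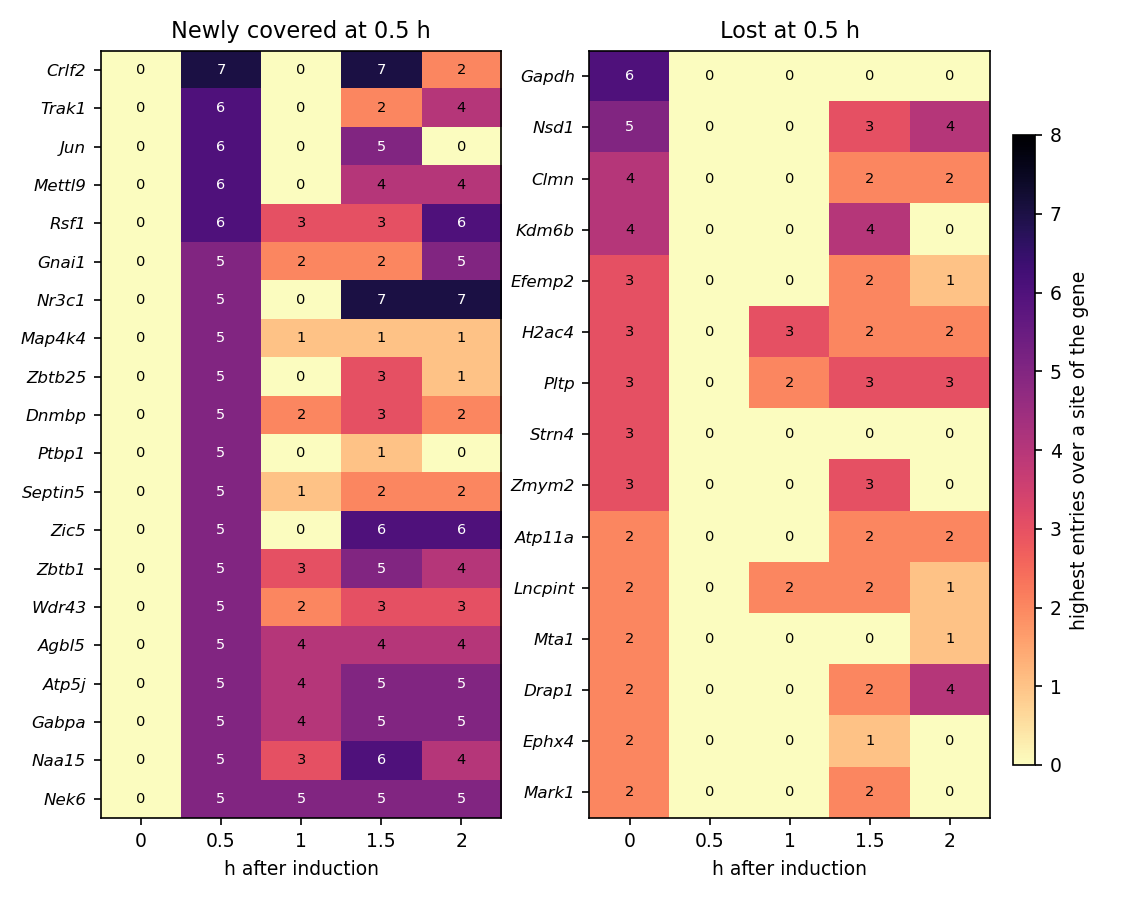
Highest number of entries over a site of each gene in the 5 libraries (columns, h after induction), for the 20 newly covered (left) and 15 lost (right) genes ranked first. The genes were chosen on the 0 and 0.5 h columns; 8 of the 20 newly covered genes read 0 again at 1 h, and 2 of the 15 lost genes read 0 in all later libraries.

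The sites of a gene were then compared with each other. The following counts leave out 6 symbols annotated over more than 1000 kb. Of 273 newly covered genes with 2 or more sites, 90 gained every site (58 of them with 3 or more sites), 74 gained 1 site and 109 an intermediate number. The other 87 newly covered genes had a single site. Among 1602 genes with 2 or more sites and at least 1 change, 1419 had only gains, 124 only losses and 59 both. Where 2 or more sites changed, 863 of 968 genes (89.2%) had only gains and 46 only losses. Gained sites were 92.7% of the 4509 sites that changed, so a high share of genes with only gains is given by the excess of gains over losses. These sites are not independent, since most lie in 1 region: of 857 genes with 2 or more regions, only 128 had a region gained or lost, and only 3 had 2 or more that changed. Elmsan1, a subunit of a histone deacetylase complex, was the gene with both of its regions gained. Of 1565 genes with a gained site, 1205 were already covered elsewhere, and 1142 gained sites only inside regions that were covered at 0 h.

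Asap1, a GTPase activating protein for Arf, went from 4 to 21 covered sites of 22, and its sum from 16 to 67 entries while the highest value was 4 in both libraries. Baz2b, a bromodomain protein, went from 2 to 15 of 22 sites. Smad5, a mediator of BMP signalling, went from 5 to 16 of 16 with a highest value of 2 and then 5, and Snx20, a sorting nexin, from 0 to 17 of 17 with 1 entry at each. Slc4a7, a bicarbonate transporter, gained 9 of 9 sites and held 0, 4, 4, 4 and 3. In Asap1 the cover widened with no higher maximum, and in Smad5 both measures were higher.

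**Figure D4:**
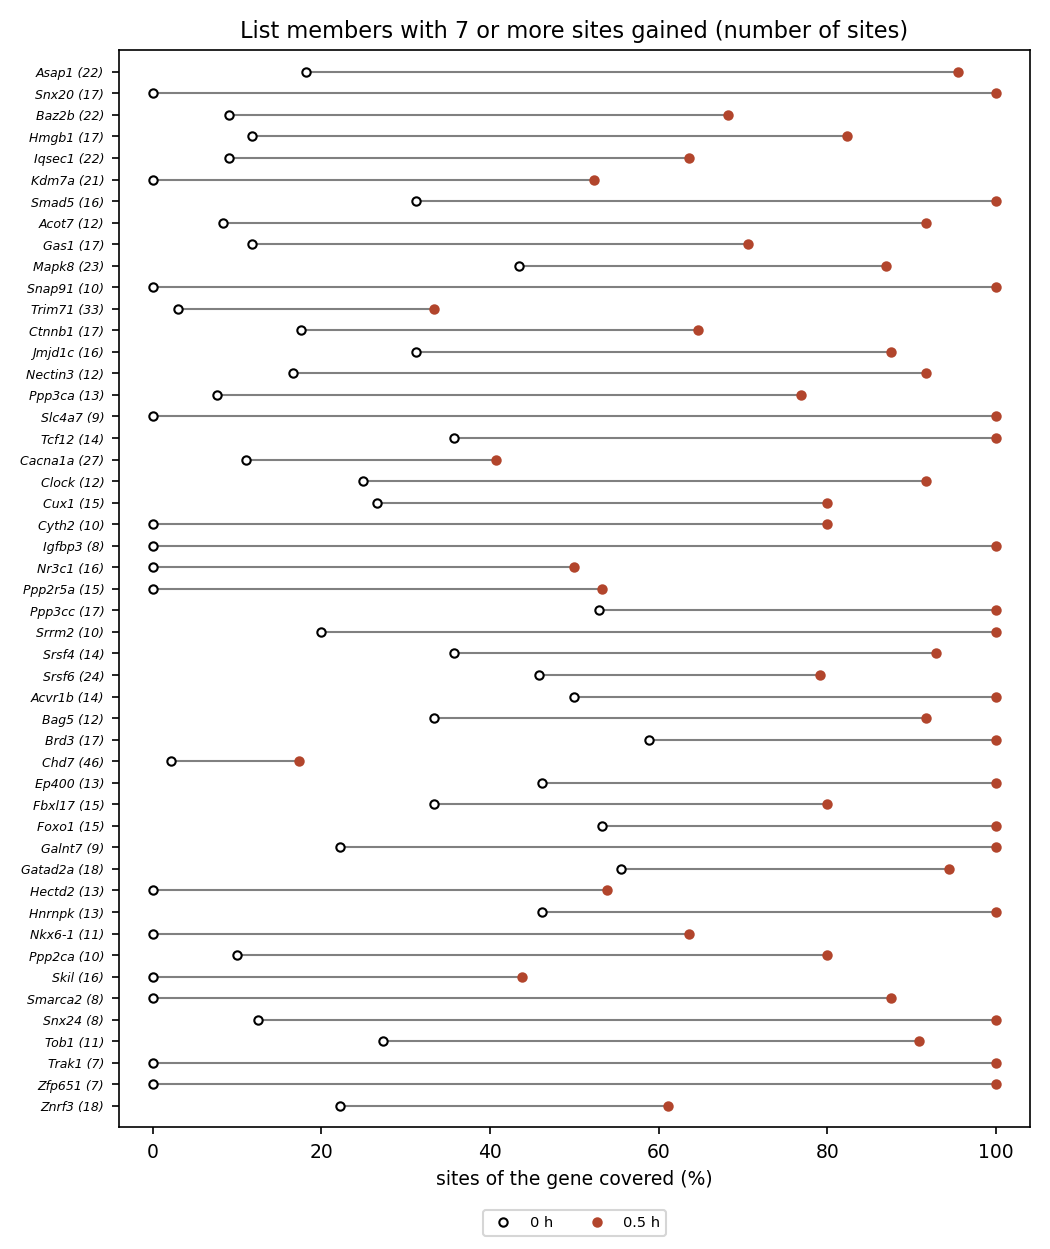
Share of a gene's sites that were covered at 0 h (open) and 0.5 h (filled), for 49 members of the gene lists with 7 or more gained sites; the number of sites stands in parentheses. The genes were chosen on this difference, so the direction is given by the choice, and the plot shows how far each gene was from full cover at each time.

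Both gains and losses were found in the following genes. Nova1, a neuronal splicing regulator, gained 5 and lost 8 of 22 sites in 1 region, its covered sites going from 13 to 10. Nr2f6, an orphan nuclear receptor, gained 5 and lost 3 of 18, and Ano8, of the anoctamin family, gained 6 and lost 2 of 10 with the sum at 6 in both libraries.

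The widest upward gap at a site covered at both times was 6 entries, in Ammecr1, Polr2l, Raph1 and Tspan4. Ammecr1 was covered at all 8 of its sites at both times, and 5 of them went from 1 to 7 entries. Rest, the repressor of neuronal genes in progenitors, held 2, 6, 5, 6 and 6 at its highest site, and 19 of 19 sites were covered at 0.5 h against 15 at 0 h. Fasn, fatty acid synthase, held 3, 8, 4, 3 and 3, so that 0.5 h alone stood above 4. Pdzd8, a protein of contacts between organelles, held 2, 7, 2, 4 and 3 over 13 sites, 11 of them covered at 0 h. Raph1, which regulates actin at the leading edge, held 1, 7, 7, 5 and 4. Polr2l, a subunit of RNA polymerases, and its neighbour Tspan4 share a region and each held 1, 7, 1, 7 and 2.

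In the other direction, Tnpo2, a nuclear import receptor, held 8, 1, 0, 2 and 1 at its only site. Bcor, which encodes a corepressor, held 8, 2, 1, 3 and 1 at a site 27006 bp into the gene, while 3 of its other sites were gained. Cic, the repressor capicua, held 7, 1, 1, 0 and 0 at a site 10868 bp in, while 5 of its 12 sites were gained. Hsp90aa1, the inducible HSP90, was covered at all 13 of its sites at both times, each of which held 5 and then 1, with 2, 3 and 3 later. Ddx6, an RNA helicase of P-bodies, held 6, 2, 2, 5 and 2, and 3 of 7 sites were lost. Lef1, a Wnt effector, held 7, 3, 7, 7 and 5, so that 0.5 h was the lowest library. Smarce1, a subunit of the BAF remodelling complex, held 7, 3, 5, 4 and 4. In Tnpo2, Hsp90aa1 and Smarce1 the 0 h value was the highest of the 5.

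Genes were next grouped by function. A gene with more sites had more chance to hold a gained one: the share was 3.34% of genes with 1 site, 9.34% with 2, 19.8% with 3 to 5, 42.7% with 6 to 10 and 59.1% with 11 or more. Each list is therefore given with its median number of sites per member, and its share is to be read beside 19.5% for all genes. Members with a lost site are to be read beside 2.55% of all genes. Newly covered members and members that lost all cover are to be read beside 4.49% and 0.934%. With 2 or more entries needed for cover, the share of all genes was 20.7%.

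**Figure D5:**
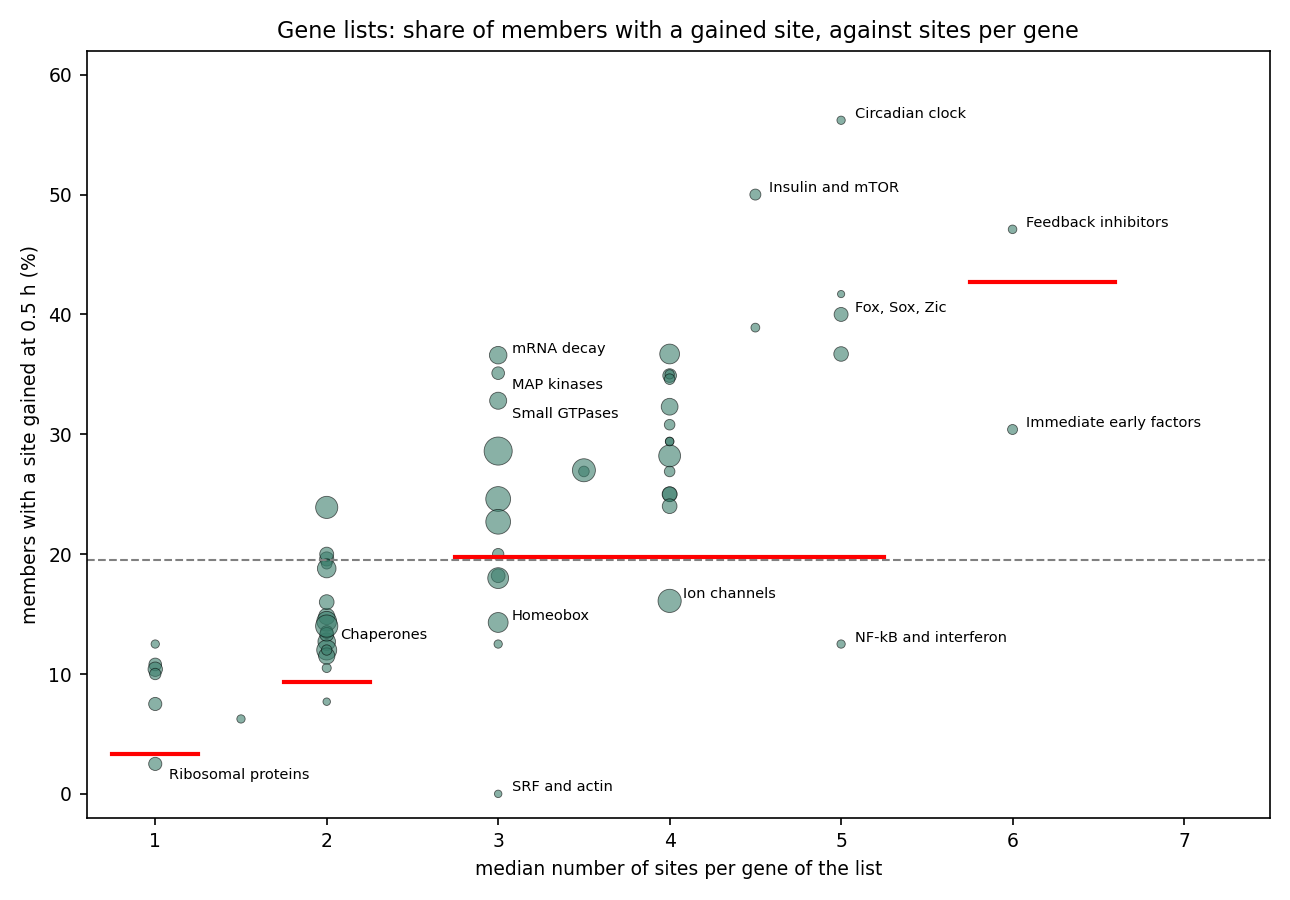
Percent of the members of each gene list (10 or more members, noncoding genes left out) with a site gained at 0.5 h, against the median number of sites per member; point area follows the number of members. The dashed line is all genes (19.5%) and the red bars are all genes with 1, 2, 3 to 5 and 6 to 10 sites, the last drawn from 6; shares were higher where members had more sites.

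Lists of insulin and receptor signalling, its feedback inhibitors and MAP kinases lay above the share of all genes. Of 28 insulin, mTOR and receptor signalling genes (median 4.5 sites), 14 had a gained site and 1 had a lost site. The median log2 ratio of sums was 0.22 as deposited and -0.06 on the scaled values. Igfbp3, which binds insulin-like growth factors, gained 8 of 8 sites and held 0, 2, 0, 1 and 2. Rictor, a subunit of mTOR complex 2, went from 7 to 13 of 13 covered sites and held 2, 4, 2, 5 and 7, and Sos1, a Ras exchange factor, from 3 to 7 of 7 with 2, 5, 2, 4 and 4. Grb10, an adaptor that restrains insulin signalling, was the exception, with 5 of 25 sites lost and none gained. Fgfr2 counts in this list but is one of the symbols annotated over more than 1000 kb.

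Feedback inhibitors of growth factor signalling (17 genes, median 6 sites) had a gained site in 8 (47.1%) and a lost site in none. Their median log2 ratio was 0.415, and 0.11 on the scaled values. Dusp16, a phosphatase of JNK and p38, went from 8 to 13 of 13 covered sites and held 3, 5, 2, 3 and 2. Spred1, an inhibitor of Ras signalling, went from 2 to 7 of 10 sites with its highest value at 3 in both libraries. Spry1 and Spry2, Sprouty inhibitors, each had 3 covered sites at 0 h and 4 at 0.5 h. Ier5, an immediate early gene, was newly covered at 2 of 2 sites, with 0, 3, 3, 3 and 3.

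MAP kinase cascade kinases (37 genes, median 3 sites) had a gained site in 13 (35.1%), 5 newly covered genes and 1 lost gene. The newly covered members were Map4k4, Map3k1 (5 of 19 sites, with 0, 4, 0, 5 and 1), Map2k4 (3 of 3, with 0, 2, 1, 2 and 1), Map3k15 (3 of 6, 1 entry) and Map3k20 (2 of 2, 2 entries). Map2k4 encodes a kinase that activates JNK, whose gene Mapk8 went from 10 to 20 of 23 covered sites at 1 entry in both libraries. Mapkapk5, a kinase downstream of p38, was the lost member, from 2 entries at 1 site.

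Of 23 immediate early transcription factors (median 6 sites), 7 (30.4%) had a gained site, none had a lost one, and 13 had equal sums. The median log2 ratio was 0.0, and -0.26 on the scaled values. The lists of ribosomal proteins and of splicing factors had the same medians, 0.0 and -0.26. Jun and Klf10, a factor induced by TGF-beta, were newly covered, the second at 6 of 6 sites with 0, 4, 1, 2 and 2. Nr4a2, an orphan receptor of dopaminergic neurons, went from 5 to 9 of 9 covered sites with 3, 4, 3, 3 and 3. Of 13 SRF target and actin genes (median 3 sites) none gained a site and 1, Tpm4, lost one, its highest value going from 6 to 4. NF-kappaB and interferon genes had a gained site in 2 of 16 (12.5%, median 5 sites), among them Rela, from 7 to 11 of 11 covered sites while its highest value went from 2 to 1.

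Circadian clock genes had a gained site in 9 of 16 (56.2%, median 5 sites), the highest share of the lists of 10 or more members, with no site lost. With 2 or more entries needed for cover it was 6 of 16 (37.5%), behind the insulin and mTOR list (12 of 28, 42.9%) and 4 others. Their sums were higher in 11 and equal in 5. On the scaled values they were higher in 7 and lower in 7. Clock, the activator of the clock loop, went from 3 to 11 of 12 covered sites and held 1, 4, 3, 4 and 4. Arntl, its partner, went from 3 to 8 of 8 and held 1, 2, 2, 3 and 3. Cry1, a repressor of the loop, went from 5 to 7 of 7 and held 2, 3, 3, 3 and 3. In Clock the 8 gained sites were the continuation of 3 covered sites nearer the start.

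Genes of sterol, fatty acid and phospholipid synthesis (26, median 4 sites) had a gained site in 9 (34.6%) and a lost site in none, with 3 newly covered genes. Their median log2 ratio was 0.45, and 0.07 on the scaled values. Srebf2, the activator of cholesterol synthesis genes, went from 2 to 4 of 4 covered sites with 1, 3, 2, 3 and 2. Acaca, which makes malonyl-CoA, held 1, 3, 3, 3 and 2, and Acsl3, an acyl-CoA synthetase, 1, 4, 2, 1 and 1. Elovl6, Sgms1 and Sptlc2, of fatty acid elongation and sphingolipid synthesis, were newly covered with 3, 4 and 1 entries.

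FoxO factors and targets of growth factor withdrawal (17 genes, median 4 sites) had a gained site in 5 (29.4%). Foxo1, a forkhead factor that Akt keeps out of the nucleus, went from 8 to 15 of 15 covered sites with 3 entries at the highest site in both libraries. Mxi1, an antagonist of Myc, went from 18 to 23 of 25 sites and held 2, 4, 3, 4 and 3.

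TGF-beta and BMP genes (43, median 4 sites) had a gained site in 15 (34.9%) and 3 newly covered members: Smurf2, a ubiquitin ligase for receptors and Smads (4 of 4 sites, with 0, 4, 0, 5 and 5), Skil, a Smad corepressor (7 of 16, with 0, 1, 0, 7 and 4), and Nog, the BMP antagonist noggin (2 of 5, with 0, 1, 0, 4 and 1). Acvr1b and Acvr2a, activin receptors, went from 7 to 14 of 14 and from 6 to 11 of 11 covered sites. The newly covered members were all back at 0 at 1 h and covered again at 1.5 h.

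Wnt genes (48, median 4 sites) had a gained site in 12 (25.0%) and a lost site in 4. With 2 or more entries needed for cover, 9 Wnt genes had a gained site (18.8%, against 20.7% of all genes). Ctnnb1, beta-catenin, gained 9 of 17 sites and lost 1, at 2 entries in both libraries. Lrp6, a Wnt coreceptor, went from 6 to 11 of 17 covered sites. Pygo1, a cofactor of beta-catenin, lost both covered sites, which had held 1 entry. Notch genes (26, median 4 sites) had a gained site in 8 (30.8%), and in 4 (15.4%, below the 20.7% of all genes) with 2 or more entries needed for cover. The receptor gene Notch1 gained 4 of 4 sites with 0, 1, 0, 1 and 3, and the effector Hey1 2 of 5 with 0, 2, 2, 3 and 3. Adam10, a protease that cleaves Notch, went from 4 to 9 of 10 sites while the highest value went from 2 to 1. Gas1 and Cdon, Hedgehog coreceptors, went from 2 to 12 of 17 and from 2 to 6 of 6 covered sites.

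The label of the cells was set against progenitor and neuronal markers. Of 8 progenitor markers, Nes, the intermediate filament nestin, Pax6 and Msi1, which encode a transcription factor and an RNA-binding protein, were at 0 at both times. Hes1, a Notch effector, held 1 entry in all 5 libraries, and Cdh2, N-cadherin, held 3, 7, 5, 7 and 5. Notch1 was newly covered, and Sox2 and Vim have no row. Of 5 neuronal markers, Map2, a dendritic microtubule protein, held 2 in all 5 libraries and Rbfox3, the nuclear antigen NeuN, 0 in all, and Tubb3, Dcx and Stmn2 have no row. The marker genes Nes, Pax6 and Msi1 were thus not covered at 0 or 0.5 h at the sites listed for them, which does not show that they are not transcribed.

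Markers of other cell types were few. Of 5 astrocyte markers, 2 (40.0%) had a gained site and a gained region: Slc1a2, a glutamate transporter, was newly covered at 3 of 5 sites with 1 entry, and Nfib, a nuclear factor I gene, gained 1 of 4 sites, from 0 to 3 entries. Sox9 held 4 in both libraries. All 7 oligodendrocyte markers had equal sums, with Olig1, Olig2, Mbp and Ugt8a at 0. Twist1, the single mesenchymal marker, held 2 and then 3. The endothelial and epithelial markers Cldn5 and Epcam were at 0 in both libraries, and Cx3cr1, of microglia, held 2 in both. The part of other cell types in the results was not tested.

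Of 18 progenitor identity genes, 7 (38.9%, median 4.5 sites) had a gained site. Beside Zic5 and Rest they include Msi2, an RNA-binding protein, from 1 to 5 of 5 covered sites with 3, 4, 2, 2 and 3. Fox, Sox and Zic factors (45, median 5 sites) had a gained site in 18 (40.0%) and a lost site in 1. Sox11, a factor of immature neurons, went from 8 to 11 of 11 sites and held 3, 7, 4, 6 and 4. Foxp1, a forkhead repressor, held 3, 7, 3, 7 and 7, while its relative Foxp2 held 4, 1, 2, 4 and 2 at 6 of 6 sites. Proneural and neuronal factors (26, median 4 sites) had a gained site in 7 (26.9%), no lost site, and 14 members at 0 at 0 h. Tcf12, a partner of proneural factors, went from 5 to 14 of 14 sites with 2, 4, 2, 5 and 3, and Neurog1, a proneural factor, gained 3 of 3 with 0, 2, 0, 1 and 1. Homeobox genes were mostly uncovered (63 of 91 at 0 h), and 13 (14.3%, median 3 sites) had a gained site.

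Of the chromatin lists, those of remodellers and of histone and DNA modifiers lay above the share of all genes. The 37 histone genes (median 1 site, 72 sites in all) lay below it, with a gained site in 4 (10.8%). All genes with 1 site had one in 3.34% and those with 2 in 9.34%, and neither share is matched to the histone list. Of 90 remodeller and histone chaperone genes (median 4 sites), 33 (36.7%) had a gained site and 2 a lost site. Chd7, a remodeller of neural crest and neural progenitors, went from 1 to 8 of 46 sites, and Hmgb1, a chromatin protein, from 2 to 14 of 17 at 4 entries in both libraries. Smarca2, an ATPase of the BAF complex, was newly covered at 7 of 8 sites with 0, 1, 0, 5 and 2. Of 49 histone acetylation genes (median 5 sites) 18 (36.7%) had a gained site, among them Ep300, an acetyltransferase, from 2 to 6 of 6 with 2, 4, 5, 4 and 5, and Brd3, a bromodomain reader, from 10 to 17 of 17.

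Of 65 histone methylation genes (median 4 sites) 21 (32.3%) had a gained site, or 15 (23.1%) with 2 or more entries needed for cover. A lost site was found in 4. Newly covered members numbered 6, among them the demethylase Kdm7a, which gained 11 of 21 sites with 0, 3, 0, 7 and 6. Ezh2, the Polycomb methyltransferase, held 3, 6, 4, 5 and 5 over 8 sites, and Jmjd1c, of the demethylase family, went from 5 to 14 of 16 covered sites. Nsd1 and Kdm6b, described above, were the lost members. Of 12 DNA methylation genes (median 5 sites) 5 (41.7%) had a gained site, or 3 with 2 or more entries needed for cover, with Dnmt3a, the de novo methyltransferase, from 2 to 7 of 28.

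Genes of mRNA decay, modification and small RNAs (71, median 3 sites) had a gained site in 26 (36.6%) and a lost site in none. Their median log2 ratio was 0.36, and 0.0 on the scaled values. Wtap, of the RNA m6A methyltransferase complex, went from 2 to 8 of 8 covered sites and held 2, 4, 4, 4 and 4. Tob1, an antiproliferative adaptor of deadenylation, went from 3 to 10 of 11 with 3, 4, 4, 6 and 6. Btg1, of the same family, was newly covered at 3 of 5 sites with 0, 3, 0, 3 and 2, and Lin28b, which blocks let-7 maturation, at 4 of 18 with 1 entry. Splicing factors and RNA helicases (141, median 3 sites) had a gained site in 32 (22.7%), such as Srrm2, from 2 to 10 of 10 sites, and Hnrnpk, from 6 to 13 of 13.

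Small GTPases (67, median 3 sites) had a gained site in 22 (32.8%) and a lost site in none. Rac1, which organises lamellipodia, went from 1 to 3 of 3 covered sites and held 1, 3, 1, 2 and 1, and Arf6, of membrane recycling, gained 4 of 6 with 0, 3, 4, 3 and 3. Ubiquitin ligases and adaptors (182, median 3 sites) had a gained site in 52 (28.6%), and protein phosphatases (110, median 4 sites) in 31 (28.2%), with the calcineurin gene Ppp3ca from 1 to 10 of 13 sites.

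Housekeeping lists of ribosomal proteins, glycolysis, respiratory complexes and the TCA cycle had medians of 1 to 2 sites and shares below that of all genes. Of 40 cytosolic ribosomal protein genes (median 1 site), 39 were covered at both times and 1 (2.5%), Rps3a1, had a gained site, or 6 with 2 or more entries needed for cover. Glycolysis genes had a gained site in 1 of 13 (7.69%, median 2 sites) and lost Gapdh. Respiratory complex genes (30, median 1 site, 67 sites in all) had a gained site in 3 (10.0%), Atp5j, Atp5o and Ttc19. All genes with 1 site had one in 3.34% and those with 2 in 9.34%, and neither share is matched to this list. With 2 or more entries needed for cover, 7 respiratory complex genes had a gained site (23.3%, against 20.7% of all genes). Cyc1, cytochrome c1, held 6, 2, 3, 3 and 4. Of 16 TCA cycle and pyruvate dehydrogenase genes (median 1.5 sites) 1 had a gained site, the phosphatase gene Pdp1 (5 of 5, with 0, 3, 3, 4 and 4), and Pdk1, the opposing kinase, held 4, 1, 2, 2 and 2 at 4 of 4 sites.

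Genes of the mitochondrial ribosome, translation and nucleoid (40, median 1 site) had a gained site in 3 (7.5%), or 5 with the stricter limit. Those of mitochondrial import, dynamics and transport (45, median 2 sites) had one in 9, or 14 with that limit, led by Trak1 and by Mcur1, a regulator of the calcium uniporter, from 2 to 8 of 8 with 3, 4, 3, 2 and 3. Chaperone genes (71, median 2 sites) had a gained site in 9 (12.7%), with sums higher in 21 and lower in 18. On the scaled values they were higher in 17 and lower in 49. DNA repair genes (45, median 2 sites) had a gained site in 6 (13.3%), and p53 and apoptosis genes (26, median 2 sites) in 5 (19.2%). In none of these 3 lists was a site lost.

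Extracellular matrix genes (61, median 2 sites) had a gained site in 7 (11.5%) and a lost site in 4, with 18 sites gained and 4 lost in all, and sums higher in 16 and lower in 11. There were 2 newly covered members and 4 lost ones, Adamts15, Col27a1, Efemp2 and Gpc4, from 2, 1, 3 and 1 entries. Axon guidance, adhesion and receptor genes (100, median 3 sites) had 7 newly covered members, among them Itgav, an integrin subunit (2 of 2 sites, 3 entries), and Sema7a, a semaphorin (2 of 2, 2 entries). The 3 lost members were Cdh11, a cadherin, at 4 of 4 sites from 1 entry, and the ephrin receptors Epha5 and Ephb2, each at 1 of 4 sites from 2 and 1 entries. Ion channel and pump genes numbered 124 (median 4 sites), 79 of them at 0 at 0 h. A gained site was found in 20 (16.1%, below 19.5% of all genes) and a lost site in 4 (3.23%, against 2.55%). Newly covered members numbered 7, to be read beside 4.49% of all genes, and no member lost all cover. The newly covered members include the calcium channel genes Cacnb3 (3 of 5, with 0, 3, 1, 2 and 2) and Cacna1c (1 of 12, with 0, 2, 3, 4 and 3). Snap91, of synaptic clathrin coats, gained 10 of 10 sites and held 0, 2, 2, 1 and 2.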

How the data were processed

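ATAC-seq libraries of C17.2 cells at 0 and 0.5 h after induction were compared (1 library each). Per the submitters' processing notes, Bowtie2, MACS2 and deepTools were used with mouse build GRCm38 (mm10); no versions, read shifting, duplicate removal, peak thresholds or origin of the site list are stated there. The deposited values are whole numbers of BED entries per site, an inference from the file headers and values: neighbouring sites within 200 bp, where either held 2 entries or more, were equal in 88.2% of 8482 pairs at 0 h and in 93.1% of 11609 at 0.5 h. They are neither read counts nor signal.

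Sites, regions (merged at 500 bp) and genes (all sites of a symbol) were counted with Python 3.11.15 and pandas 2.3.3, and the counting was tested on simulated data. Named genes are the highest-ranked newly covered (20) and lost (15) genes, those with most regions gained (15) or lost (10), those with the largest differences at sites covered at both times (15 each way), 10 with both gains and losses, and any list member with a gained, lost or newly covered site; clone names and symbols annotated over 1000 kb were left out of the rankings. A few list members with no gained or lost site, chosen after their values were seen, are also named. The members and the 68 gene lists were chosen with earlier results of these data known, and some symbol patterns of the lists were corrected after their matches were read. Gene positions and promoter sequences are RefSeq's (GRCm38.p6). Some genes that meet these rules are not reported here. Strand, exons, introns and UTRs were not used. Other cover limits, merge distances and site choices were tried; scaling to 1 total was added after seeing the data.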

Additional observations from a re-analysis of the deposited data

How the results depend on the processing

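Counts of single sites depended on the cover limit. With 2 or more entries needed for cover, lost sites numbered 881, regions gained 858 and lost 309, genes newly covered 801 and lost 277, genes with a lost site 392, and genes with 2 or more regions gained 11 (2 in the report). Within 1000 bp of the annotated 5′ end, 52 regions and 49 genes were lost, and 0 genes had 2 or more regions gained. Without symbols annotated over 1000 kb and sites with no gene, that last number was 1. Merging at 200 bp gave 697 regions gained and 47 genes with 2 or more. Scaling to 1 total gave 3989 genes with a lower sum. The other 31 of 45 such values lay within 1.5 times those reported. Gains outnumbered losses at every setting for sites, regions and genes. These settings all kept the unequal totals of the 0 h and 0.5 h libraries (42527 and 56773, summed over sites). They therefore cannot show whether the excess of gains goes with the totals, which was not tested. Of 62 lists, 10 had a number of members with a gained site that moved by more than 1.5 times with the stricter cover limit, upward in the lists of ribosomal proteins (from 1 to 6), SRF targets (0 to 1), glycolysis (1 to 2), respiratory complexes (3 to 7), mitochondrial ribosome (3 to 5), mitochondrial import (9 to 14) and peroxisome (3 to 5), and downward in Notch (8 to 4), DNA methylation (5 to 3) and oxidative stress (2 to 1). No paired analysis was possible because there is 1 library per time. Depth is unknown, so a site at 0 does not show closed chromatin.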
